A study of Mus musculus with 28 samples.

Results

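Neutrophil granule genes were followed across cell populations of the mouse brain and its coverings. The set held 10 genes, chosen by symbol from a table of 14617 genes: 3 that are expressed early in granule formation (Elane, Mpo and Prtn3) and 7 that are expressed later (Ngp, Camp, Ltf, Lcn2, Retnlg, S100a8 and S100a9). All 10 were present in the table, and all 10 passed the low-count filter, which left 12327 genes for testing.

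RNA was measured with MARS-seq, which tags the 3′ end of each captured transcript with a unique molecular identifier (UMI), so a level is not scaled by transcript length. The hosts were Cx3cr1 gfp/+ mice, whose own macrophages fluoresce green, and all were lethally irradiated. They then received marrow that carried a floxed human DNMT3A allele (hDNMT3A fl/fl), either with Vav-Cre, which recombines in blood-forming cells (mutant), or without Cre (control). At 16 weeks, GFP-negative cells of donor origin and GFP-positive cells of the host were sorted from the leptomeninges and from the brain parenchyma, where the labels call them microglia. The groups were mutant and control donor leptomeningeal cells, mutant and control donor microglia, mutant and control host microglia (4 libraries each), and mutant and control host leptomeningeal cells (2 libraries each). Cre was in the transplanted marrow alone, so the host groups are cells of the same Cx3cr1 gfp/+ genotype in hosts of mutant or control marrow. Digestion and sorting used actinomycin D to limit new transcription, and no label ties a library to its own animal or pool. The spread that p-values rest on is thus the one between libraries, which may be partly technical.

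Neutrophils load their granules in sequence. Promyelocytes fill the primary (azurophil) granules with myeloperoxidase and the serine proteases elastase and proteinase 3, and these transcripts are shut off as the cells mature. Myelocytes and metamyelocytes then make the proteins of secondary (specific) granules such as lactoferrin, lipocalin 2, cathelicidin and Ngp, while S100a8 and S100a9, which form calprotectin in the cytosol, and the resistin-like Retnlg reach their peak in later cells. C/EBP epsilon is the factor best known for switching on the secondary granule genes, and PU.1, MYB and RUNX1 for acting on the primary ones.

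The start-site regions of 2 early and 2 later genes are shown as examples picked for the letters they hold. They do not stand for every gene of a stage, and the counts over all 10 genes follow. Each runs 5′ to 3′ on the gene's own strand from 250 bases before to 50 bases after the annotated start, as given by RefSeq on GRCm38.p6. Capitals mark matches on either strand to the PU.1 letters GAGGAAG, the C/EBP letters TTGCNNAA, the MYB letters AACGG and the RUNX letters TGTGGT or to the reverse complement of each, and no 2 matches overlapped. Elane lies at chr10:79886062-79886361 on the plus strand, Mpo at chr11:87793534-87793833 on the plus strand, Ngp at chr9:110419558-110419857 on the plus strand and S100a9 at chr3:90695672-90695971 on the minus strand.
Elane: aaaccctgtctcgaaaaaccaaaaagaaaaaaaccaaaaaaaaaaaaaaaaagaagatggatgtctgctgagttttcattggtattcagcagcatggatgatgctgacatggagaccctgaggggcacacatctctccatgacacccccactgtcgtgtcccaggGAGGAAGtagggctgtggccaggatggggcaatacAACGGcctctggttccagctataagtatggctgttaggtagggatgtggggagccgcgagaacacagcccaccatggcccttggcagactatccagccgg
Mpo: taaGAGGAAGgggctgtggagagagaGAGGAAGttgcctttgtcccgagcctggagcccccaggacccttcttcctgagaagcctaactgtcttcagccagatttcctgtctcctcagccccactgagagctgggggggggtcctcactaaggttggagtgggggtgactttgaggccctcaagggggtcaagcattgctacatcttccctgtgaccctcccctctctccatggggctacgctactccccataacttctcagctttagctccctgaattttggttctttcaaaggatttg
Ngp: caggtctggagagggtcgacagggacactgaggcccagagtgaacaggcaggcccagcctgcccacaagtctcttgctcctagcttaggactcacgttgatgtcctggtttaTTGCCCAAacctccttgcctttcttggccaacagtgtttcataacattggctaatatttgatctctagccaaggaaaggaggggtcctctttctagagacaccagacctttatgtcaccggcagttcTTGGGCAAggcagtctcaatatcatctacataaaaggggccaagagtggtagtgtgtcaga
S100a9: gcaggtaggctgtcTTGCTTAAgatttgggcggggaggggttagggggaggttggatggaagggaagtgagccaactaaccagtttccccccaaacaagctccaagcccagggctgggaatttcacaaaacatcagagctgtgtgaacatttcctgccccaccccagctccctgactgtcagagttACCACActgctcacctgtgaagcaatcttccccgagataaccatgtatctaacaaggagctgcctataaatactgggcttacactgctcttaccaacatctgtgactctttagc

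All 10 genes had such a region. The PU.1 letters were in all 3 early regions (with 2 matches in Mpo) and in 2 of 7 later ones (Lcn2 and S100a8), against 13.6% of 32851 regions of the same length. The C/EBP letters were in 0 of 3 early regions and in 5 of 7 later ones (Ngp with 2 matches, Ltf, Lcn2, Retnlg and S100a9), against 10.8% of all regions. The MYB letters were in Elane and Prtn3 (17.4% of all regions), and the RUNX letters in Ltf and S100a9 (16.8%). Camp held none of the 4 motifs. A match describes letters and not a bound site. On mm10, the genes for elastase and proteinase 3 are neighbours on chromosome 10 with 3.07 kb between them, S100a8 and S100a9 lie 22.6 kb apart on chromosome 3, and Ngp, Camp and Ltf share chromosome 9.

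Library totals ran from 479077 to 3066506 UMIs, and the median library held 1634653.5. Levels are given as CPM, UMIs scaled to a common library total of 1000000. For a gene with no UMI, counting error alone allows 3 UMIs, which is 6.26 CPM at the smallest total and 0.978 CPM at the largest. Donor microglia had the fewest, 487382 to 1013608 UMIs in mutant and 479077 to 692405 in control libraries. Mouse Dnmt3a did not pass the test for genotype in donor microglia (log2 difference -0.09 ± 0.18, adjusted p = 0.905) or donor leptomeningeal cells (0.04 ± 0.16, adjusted p = 1), and the human allele is not a row of the table. Of the homeostatic microglial genes, P2ry12 averaged 337.1 ± 75.0 and 420.0 ± 21.2 CPM in mutant and control donor microglia, against 3380 ± 1048 and 4000 ± 235 CPM in mutant and control host microglia. Sall1, a transcription factor of resident microglia, averaged 13.3 ± 5.61 and 20.9 ± 9.25 CPM in mutant and control donor microglia, against 324.2 ± 26.3 and 345.3 ± 16.1 CPM in the same host populations (SD, n = 4 each). The gene Ly6g, which encodes the antigen used to identify mouse neutrophils and was singled out after its values were seen, lay at 41.7 to 122 CPM in mutant and 64.3 to 115 CPM in control donor leptomeningeal libraries. It lay at 0 to 2.98 CPM in mutant and 2.09 to 9.84 CPM in control donor microglia.

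Donor leptomeningeal cells held by far the most granule RNA. The 10 genes together took 3.62% to 9.77% of all UMIs there, 0.0948% to 1.07% in donor microglia, 0.184% to 0.582% in host leptomeningeal cells and 0.0161% to 0.114% in host microglia. In sorted bulk RNA, fewer cells of a type and less of a transcript per cell cannot be told apart. In each of the 4 leptomeningeal groups, and in both host microglial groups, S100a9 had the highest median level and S100a8 the next, whereas in both donor microglial groups Camp and Ngp came first and second. The early genes were lowest in every group apart from control donor microglia, where the median of Retnlg (30.9 CPM) was below those of Elane (212.7), Prtn3 (151.7) and Mpo (105.6).

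**Figure D1:**
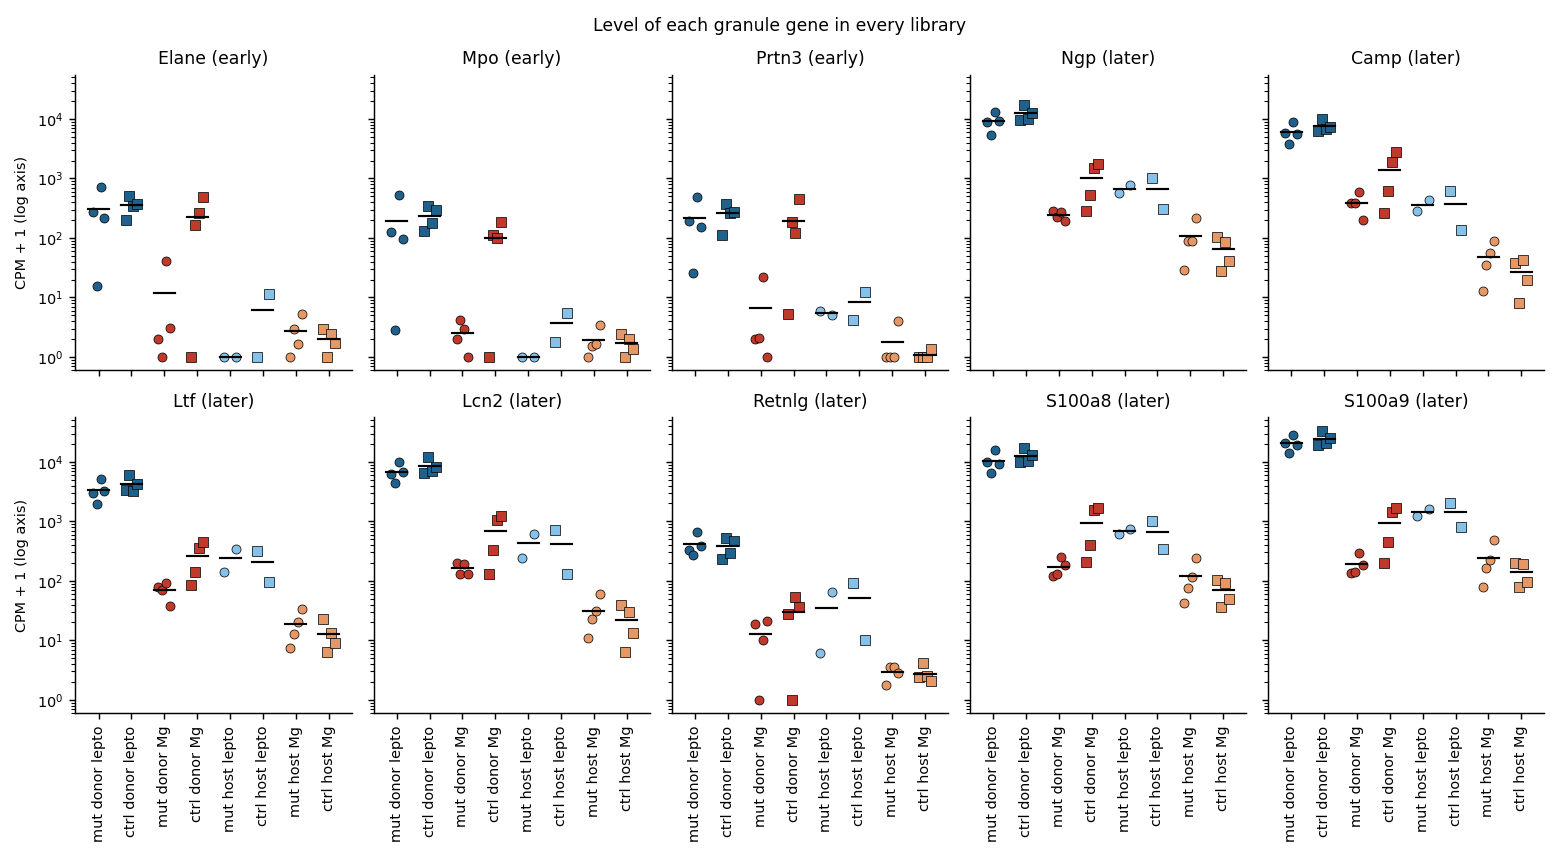
Level of each granule gene in every library, as CPM plus 1 on a log axis, for mutant (mut, circles) and control (ctrl, squares) cells of donor or host origin from leptomeninges (lepto) and parenchyma (Mg); the bar is the group mean. The later genes are highest in donor leptomeningeal cells (S100a9 14020 to 33240 CPM), and the early genes are near 0 in all host groups and in 3 of 4 mutant donor microglial libraries.

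Elane, the gene of neutrophil elastase, measured 269.2, 14.7, 720.5 and 217.5 CPM in mutant donor leptomeningeal libraries 1 to 4, against 201.7, 500.9, 337.1 and 376.7 CPM in control ones. In donor microglia it measured 0.987, 0, 39.7 and 2.05 CPM in mutant libraries, against 0, 164.6, 260.8 and 480.3 CPM in control libraries. Libraries of both genotypes overlapped in either compartment, because mutant leptomeningeal library 2 was the lowest and library 3 the highest of the 8 there, and control microglial library 1 held no Elane UMI. Host microglia had 0 to 4.27 CPM in mutant and 0 to 1.94 CPM in control chimeras. In host leptomeningeal cells both mutant libraries were at 0, and control libraries were at 0 and 10.3 CPM.

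Mpo, the gene of myeloperoxidase, followed the same libraries. It measured 127.1, 1.84, 531.1 and 96.6 CPM in mutant donor leptomeningeal libraries 1 to 4, against 128.6, 340.5, 178.8 and 294.8 CPM in control ones. Donor microglia had 0.987, 3.20, 1.99 and 0 CPM in mutant libraries, which is 0 to 3 UMIs each, against 0, 111.2, 100.1 and 183.8 CPM in control libraries. Mutant microglial library 3, which had the most Elane of its group, thus stood at 1.99 CPM for Mpo, and control library 1 was again at 0. In host cells of either compartment no library exceeded 4.56 CPM.

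Prtn3, which encodes proteinase 3, measured 193.3, 24.5, 493.6 and 150.9 CPM in mutant donor leptomeningeal libraries 1 to 4, against 110.5, 377.6, 264.4 and 277.4 CPM in control ones. Donor microglia had 0.987, 1.07, 20.9 and 0 CPM in mutant libraries, against 4.17, 182.0, 121.4 and 452.6 CPM in control libraries. Control library 1 lay between mutant libraries 2 and 3, so the groups overlapped by that library alone. Unlike Elane and Mpo, Prtn3 had UMIs in all 4 host leptomeningeal libraries, at 5.02 and 4.07 CPM in mutant and 3.17 and 11.4 CPM in control ones. Host microglia had 0 CPM in 3 of 4 libraries of each genotype.

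Ngp, a secondary granule protein of the cystatin-like family, measured 8966, 5370, 13060 and 9201 CPM in mutant donor leptomeningeal libraries 1 to 4, against 9586, 17370, 10170 and 12720 CPM in control ones. Donor microglia had 281.2, 225.1, 271.2 and 188.8 CPM in mutant libraries, against 283.9, 519.9, 1527 and 1755 CPM in control libraries. It was the 1 gene of the 10 whose mutant and control donor microglial libraries did not overlap, by a margin of 281.2 against 283.9 CPM. The share of all genes tested without such overlap was not counted, so no meaning is drawn from this. Host leptomeningeal cells had 577.3 and 774.8 CPM in mutant and 1017 and 305.3 CPM in control chimeras, and host microglia 27.7 to 216.2 and 26.7 to 103.7 CPM.

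S100a8, a calcium-binding subunit of calprotectin, measured 9859, 6495, 15620 and 9173 CPM in mutant donor leptomeningeal libraries 1 to 4, against 10080, 17120, 10220 and 12860 CPM in control ones. Donor microglia had 120.4, 130.1, 248.4 and 186.7 CPM in mutant libraries, against 204.6, 392.8, 1532 and 1656 CPM in control libraries. Only control library 1 lay within the mutant range. Its partner S100a9 measured 21000, 14020, 28630 and 19500 CPM in mutant donor leptomeningeal libraries, against 19020, 33240, 20640 and 25040 CPM in control ones. Donor microglia had 137.1, 141.9, 288.1 and 182.6 CPM of S100a9 in mutant libraries, against 200.4, 443.4, 1437 and 1673 CPM in control libraries. As with S100a8, control microglial library 1 was the point of overlap. Host microglia, at 76.4 to 492.7 CPM in mutant and 77.9 to 199.7 CPM in control chimeras, overlapped the mutant donor microglial range for S100a9.

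The remaining later genes were likewise highest in donor leptomeningeal cells and lowest in host microglia by their means, while Camp, unlike Ngp, S100a8 and S100a9, had a higher mean in donor microglia (896.0 CPM) than in host leptomeningeal cells (366.7 CPM). Camp, the cathelicidin precursor, averaged 5958 ± 2080 CPM in mutant and 7605 ± 1709 CPM in control donor leptomeningeal cells, and 389.2 ± 162.4 and 1403 ± 1188 CPM in mutant and control donor microglia. Ltf, which encodes the iron-binding lactoferrin, averaged 3329 ± 1345 and 4227 ± 1337 CPM in mutant and control donor leptomeningeal cells, and 69.7 ± 23.6 and 258.8 ± 175.6 CPM in mutant and control donor microglia. For both genes the SD in control donor microglia was over 0.5 of the mean, and control library 1 overlapped the mutant range. Lcn2, which encodes a protein that binds bacterial siderophores, averaged 6827 ± 2324 and 8437 ± 2486 CPM in mutant and control donor leptomeningeal cells, and 161.6 ± 37.2 and 685.4 ± 535.9 CPM in mutant and control donor microglia (SD, n = 4 each). Retnlg was the least abundant later gene in donor microglia, at 17.8, 0, 8.94 and 20.5 CPM in mutant libraries 1 to 4, against 27.1, 0, 52.5 and 34.7 CPM in control ones. Library 2 of each genotype held no Retnlg UMI, including the control library that had the largest early share.

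The balance of early to later RNA varied widely among libraries of 1 group in donor cells. Elane, Mpo and Prtn3 together made up 15.8%, 5.77% and 10.4% of the 10 genes' UMIs in control donor microglial libraries 2, 3 and 4 (95% exact binomial intervals 14.2% to 17.5%, 5.14% to 6.44% and 9.65% to 11.2%). Control library 1 was at 0.350% (0.0424% to 1.26%), and mutant donor microglial libraries 1 to 4 were at 0.243%, 0.394%, 3.57% and 0.217%. The control libraries 2 to 4 were thus above all 25 others, of which mutant microglial library 3 was the highest. Mutant donor leptomeningeal libraries were at 1.06%, 0.113%, 2.09% and 0.854%, against 0.795%, 1.25%, 1.32% and 1.32% in control ones. Mutant leptomeningeal library 2 stood below the other 7, with an early sum of 41.1 CPM against 440.8 to 1745 CPM, while its later sum of 36200 CPM was also the lowest of the 8. In the same library the 20 cell cycle genes took 0.0840% of UMIs, the lowest of the donor leptomeningeal libraries (0.0964% to 0.183% in the others), and the part of this in the early sum was not tested.

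**Figure D2:**
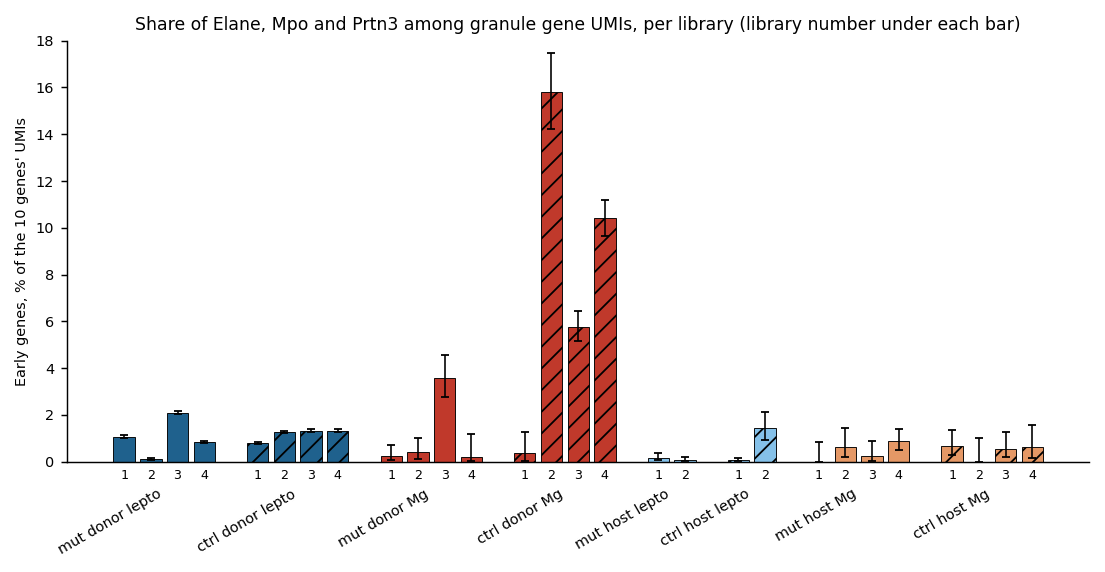
Share of Elane, Mpo and Prtn3 among the UMIs of the 10 granule genes in each library, in percent, with 95% exact binomial intervals that cover counting error only; hatched bars are control libraries. Control donor microglial libraries 2, 3 and 4 stand at 15.8%, 5.77% and 10.4%, and control library 1 at 0.350%.

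Leptomeningeal against parenchymal donor cells asked how far the granule genes depend on where marrow-derived cells were collected. All 10 genes were higher in the leptomeninges by edgeR's quasi-likelihood test with Benjamini-Hochberg adjustment, where 30.5% of all genes tested were higher and 31.5% lower. S100a9 rose the most, by 5.998 ± 0.49 on the log2 scale (adjusted p = 6.92e-10), and averaged 22640 CPM in donor leptomeningeal cells against 563.0 CPM in donor microglia (n = 8 each). S100a8 rose by 5.07 ± 0.48, Ltf by 5.03 ± 0.41, Lcn2 by 4.75 ± 0.49, Retnlg by 4.74 ± 0.47 and Ngp by 4.67 ± 0.46, with edgeR adjusted p of at most 2.97e-08. Camp rose less, by 3.43 ± 0.47 (adjusted p = 1.88e-06). The early genes had folds of 2.91 ± 0.69 (Elane), 2.98 ± 0.66 (Prtn3) and 4.22 ± 0.86 (Mpo), with adjusted p of 0.00112, 0.000517 and 0.000243. All 8 leptomeningeal libraries lay above all 8 microglial ones for each of the 7 later genes, and libraries overlapped for the 3 early ones. How many of all genes tested separated in this way was not counted. With voom, Elane and Mpo missed the threshold (adjusted p = 0.0854 and 0.114).

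Genes of some other cell types were higher in the same comparison, where 30.5% of all genes tested were higher and 31.5% lower. Of 9 monocyte genes tested 8 were higher and 1 lower, of 5 eosinophil genes 5 were higher, and of 20 cell cycle genes 19 were higher, with median folds of 3.49, 3.96 and 2.29. Other lists did not rise. Of 13 macrophage genes 5 were higher and 6 lower, and of 10 homeostatic microglial genes 0 were higher and 9 lower. Of 6 blood progenitor genes 3 were higher and 3 lower, and of 5 erythroid genes 0 were higher and 1 lower. The lists with the fewest genes tested had 1 of 4 (mast cell and basophil) and 2 of 3 (B lineage) higher, with 0 lower in each. Monocyte genes took 0.206% to 0.272% of UMIs in mutant and 0.233% to 0.320% in control donor leptomeningeal libraries, and 0.0199% to 0.0522% in donor microglia of both genotypes. Eosinophil genes took 0.0105% to 0.0211% in mutant and 0.0125% to 0.0168% in control donor leptomeningeal libraries, against 0.000395% to 0.00107% and 0.000578% to 0.0158% in mutant and control donor microglia. The cell cycle genes took 0.0840% to 0.183% in donor leptomeningeal libraries and 0.0337% to 0.0668% in donor microglia. All 10 monocyte and all 6 eosinophil genes in the table had UMIs in every donor leptomeningeal library, while 0 to 1 monocyte and 0 to 4 eosinophil genes were at 0 in donor microglial ones. The part of these in the granule gene values was not tested.

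Donor against host cells of the leptomeninges set marrow-derived against resident cells. All 10 genes were higher in donor cells, where 16.9% of genes tested were higher and 13.3% lower. The later genes rose by 3.37 ± 0.50 (Retnlg) to 4.43 ± 0.67 (Camp), with an adjusted p of at most 2.05e-05 by edgeR. All 8 donor libraries exceeded all 4 host ones for each gene but Mpo, which was at 1.84 CPM in mutant donor library 2 and at 4.56 CPM in a control host library. Separation of this kind was not counted over all genes tested. The early genes Elane and Mpo also passed (adjusted p = 0.000161 and 0.000179), and both had host libraries at 0 UMIs, so the size of their fold depends on the prior count. Prtn3, with 4 to 10 UMIs in each host library, rose by 5.67 ± 1.01 (adjusted p = 0.000132). With voom, Elane and Mpo did not pass (adjusted p = 0.105 and 0.129). Of the 20 cell cycle genes 19 were also higher in donor cells, at 0.0840% to 0.183% of UMIs against 0.0431% to 0.0525% in host cells, and 7 of 9 monocyte genes were higher and 1 lower. By contrast, all 13 macrophage genes were lower, at 4.07% to 6.77% of UMIs in donor and 9.19% to 10.6% in host cells. Of 10 homeostatic microglial genes 0 were higher and 9 lower. Their part in the granule gene values was not tested.

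In the parenchyma, 9 of the 10 genes were higher in donor than in host microglia, where 33.1% of genes tested were higher and 27.3% lower. Camp rose by 4.60 ± 0.53 (edgeR adjusted p = 1.3e-07), Lcn2 by 3.93 ± 0.52, Ltf by 3.46 ± 0.45 and Retnlg by 3.40 ± 0.93. Libraries of the 2 origins did not overlap for Camp, Ltf and Lcn2, and the share of all genes tested without overlap was not counted. Ngp rose by 2.77 ± 0.44 and S100a8 by 2.32 ± 0.44, whereas S100a9 rose by 1.36 ± 0.42 (adjusted p = 0.00819) and had 2 of 8 donor libraries above all host ones. Elane and Prtn3 rose by 5.48 ± 1.54 and 6.73 ± 1.97 (adjusted p = 0.00432 and 0.0055), and Mpo had a fold of 4.26 ± 2.92 (adjusted p = 0.22). Each host microglial library held 0 to 7 UMIs of any 1 of these early genes, and DESeq2 called Mpo higher as well (adjusted p = 4.33e-05). Without mutant donor microglial library 3, Elane and Prtn3 no longer passed (adjusted p = 0.548 and 0.382), and with voom Elane, Prtn3 and Retnlg did not pass (adjusted p = 0.231, 0.0568 and 0.0805). Of the other cell types listed, 9 of 9 monocyte genes tested were higher in donor microglia, and 6 macrophage genes were higher and 6 lower of 13. All 10 homeostatic microglial genes were lower. Monocyte genes took 0.0199% to 0.0328% of UMIs in mutant and 0.0299% to 0.0522% in control donor microglia, against 0.00470% to 0.00721% and 0.00456% to 0.00565% in mutant and control host microglia. Their part in the granule gene values was not tested.

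Host leptomeningeal cells, from 4 libraries, had more of the later genes than host microglia. All 7 later genes were higher, where 31.1% of genes tested were higher and 25.7% lower, with folds of 3.08 ± 0.49 (S100a8) to 4.77 ± 0.78 (Retnlg) and an edgeR adjusted p of at most 2.11e-05. All 4 leptomeningeal libraries lay above the 8 microglial ones for each of the 7. The same held for the early gene Prtn3, by a margin of 3.17 against 3.05 CPM. Such separation was not counted over all genes tested. Without control host leptomeningeal library 1 or mutant host leptomeningeal library 2, Retnlg did not pass (adjusted p = 0.0517 and 0.119). The 3 early genes did not pass (adjusted p = 0.185 to 0.903) and had 0 to 10 UMIs each in any host library, so no fold is given. Monocyte genes were higher too, 9 of 9 tested, at 0.150% to 0.197% of UMIs in host leptomeningeal cells against 0.00456% to 0.00721% in host microglia, and their part was not tested. Of 13 macrophage genes 7 were higher and 3 lower, and of 10 homeostatic microglial genes 0 were higher and 8 lower.

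**Figure D3:**
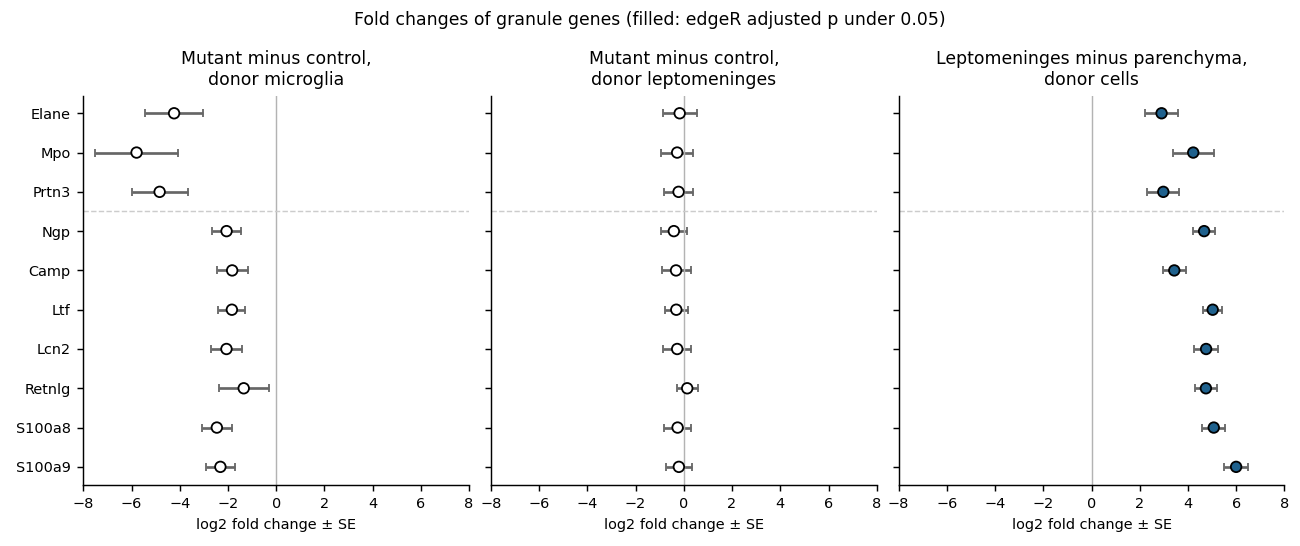
Log2 fold changes ± SE of the 10 genes for mutant minus control donor microglia, mutant minus control donor leptomeningeal cells, and leptomeningeal minus parenchymal donor cells; the dashed line divides early from later genes and filled points have an edgeR adjusted p under 0.05. All 10 points are filled in the compartment comparison and 0 of 10 in either genotype comparison, although all 10 folds in donor microglia lie below 0.

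The difference between donor and host cells was larger in the leptomeninges than in the parenchyma for the calprotectin genes. S100a9 had a difference of folds of 2.87 ± 0.67 (edgeR adjusted p = 0.00157) and S100a8 of 1.99 ± 0.67 (adjusted p = 0.0211), so 2 of the 10 genes passed, where 19.1% of genes tested passed in that direction and 23.2% in the other. Ngp had 1.47 ± 0.66 (adjusted p = 0.0801), Ltf 0.84 ± 0.64, Lcn2 0.46 ± 0.73, Retnlg -0.03 and Camp -0.16 ± 0.71, and the early genes did not pass with edgeR either. The comparisons by compartment and by origin share their donor libraries and are not separate evidence. S100a8 missed the threshold without control host leptomeningeal library 2 (adjusted p = 0.0735) or mutant host leptomeningeal library 1 (adjusted p = 0.0541). It also missed it in edgeR with the library number fitted as a block within genotype (adjusted p = 0.064). Ngp passed with DESeq2 (adjusted p = 0.0434), and with edgeR without control host leptomeningeal library 1 (adjusted p = 0.0316) or mutant host microglial library 1 (adjusted p = 0.0354). DESeq2 called an early gene as well, but its host groups were at or near 0 UMIs, so no fold is given.

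Some proportions among the later genes also set donor microglia apart, while others did not. S100a9 had 0.978 to 1.16 UMIs per UMI of S100a8 in mutant and 0.938 to 1.13 in control donor microglia. The ratio was 1.83 to 2.16 in mutant and 1.89 to 2.02 in control donor leptomeningeal cells, 1.97 to 2.15 and 2.05 to 2.36 in mutant and control host leptomeningeal cells, and 1.81 to 2.22 and 1.92 to 2.19 in mutant and control host microglia. No library of donor microglia overlapped any of the other 20. Camp had 1.05 to 2.20 UMIs per UMI of Ngp in mutant and 0.919 to 1.62 in control donor microglia, against 0.567 to 0.702 in donor leptomeningeal cells, 0.437 to 0.604 in host leptomeningeal cells and 0.267 to 0.618 in host microglia. Donor microglial libraries again lay above all others. S100a9 per Ngp lay at 0.488 to 1.06 in donor microglia and at 1.85 or above in all other libraries. Lcn2 per Ngp did not follow this pattern, at 0.456 to 0.709 in donor microglia and 0.646 to 0.810 in donor leptomeningeal cells. Donor and host microglia overlapped for Ltf per Ngp (0.196 to 0.341 and 0.135 to 0.232) and for S100a8 per Ngp (0.428 to 1.003 and 0.837 to 1.52). They also overlapped for Retnlg per Ngp (0 to 0.109 and 0.00848 to 0.117). These ratios describe the libraries and were not tested, and separation was not counted over ratios of other genes.

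**Figure D4:**
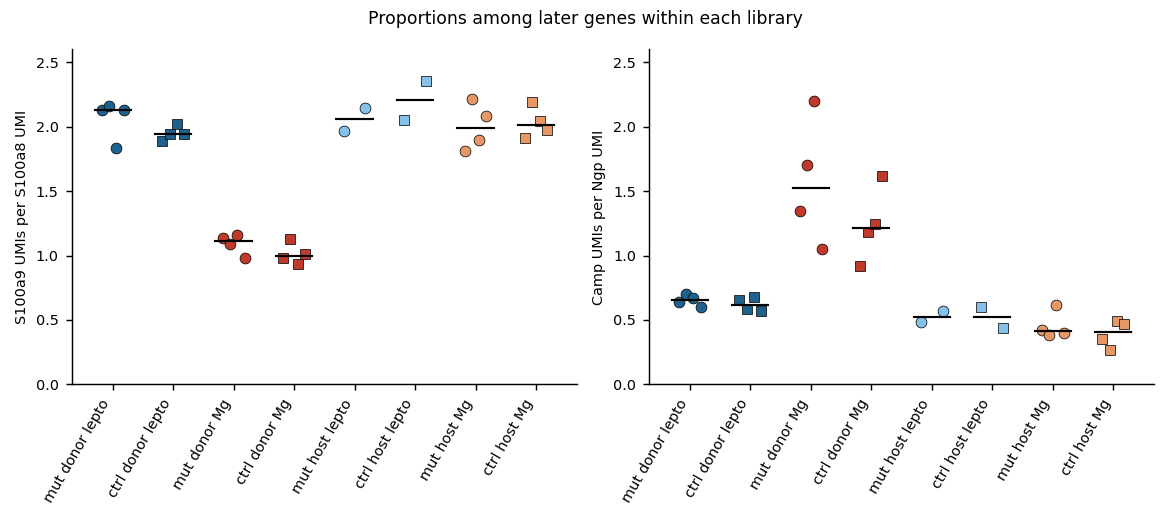
UMIs of S100a9 per UMI of S100a8 (left) and of Camp per UMI of Ngp (right) in each library, with the bar at the group median. Donor microglia of both genotypes lie at 0.938 to 1.16 for S100a9 per S100a8, below every other library, and at 0.919 to 2.20 for Camp per Ngp, above every other library.

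Mutant against control donor microglia asked whether the recombined allele changed these genes in marrow-derived cells of the parenchyma. All 10 folds were negative, and 0 of the 10 genes passed edgeR's quasi-likelihood test, where 0.0892% of genes tested passed (11 of 12327). The early genes had the largest folds and the widest errors, -4.24 ± 1.19 for Elane (adjusted p = 0.204), -5.79 ± 1.72 for Mpo (adjusted p = 0.225) and -4.84 ± 1.16 for Prtn3 (adjusted p = 0.146). Mutant libraries held 0 to 3 UMIs of Mpo, and mutant libraries 1, 2 and 4 held 0 or 1 UMI of Elane and of Prtn3. The size of the early folds thus rests on counts at or near 0 in most mutant libraries. The later genes had folds of -1.35 ± 1.03 (Retnlg) to -2.46 ± 0.62 (S100a8), with an adjusted p of 0.174 to 0.692. The median fold was -4.84 for the early genes and 0.003 for all genes tested. With DESeq2's Wald test 6 genes were lower (Mpo, Prtn3, Ngp, Ltf, S100a8 and S100a9, adjusted p = 0.00534 to 0.0482) among 81 genes called. Without control library 2, edgeR called 4 lower (Prtn3, Ngp, S100a8 and S100a9, adjusted p = 0.0151 to 0.0439) among 544 genes called. Without mutant library 3 the folds of Elane and Prtn3 were -7.95 and -7.70 and did not pass (adjusted p = 0.238 and 0.193), and without control library 1 together with mutant library 4 the early folds were -4.40 (Elane), -5.93 (Mpo) and -4.97 (Prtn3), with 0 of 10 genes passing.

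Other cell types were measured in the same libraries. The 24 genes of mature neutrophil receptors and products took 0.0898% to 0.119% of UMIs in mutant and 0.0794% to 0.120% in control donor microglia, so the groups overlapped there. This share does not measure neutrophils alone, since host microglia were at 0.0771% to 0.0864%. The list holds Csf3r and Ccl6, which averaged 419.8 and 291 CPM in host microglia against 161.2 and 113.4 CPM in donor microglia. The 10 monocyte genes took 0.0199% to 0.0328% in mutant and 0.0299% to 0.0522% in control donor microglia, and the 13 macrophage genes 10.4% to 12.8% and 11.97% to 16.5%. The 20 cell cycle genes took 0.0337% to 0.0410% in mutant and 0.0359% to 0.0668% in control libraries. The 8 mast cell and basophil genes took 0.000410% to 0.000960% in mutant and 0.00125% to 0.00260% in control libraries, without overlap. In the same order, the 6 eosinophil genes took 0.000395% to 0.00107% and 0.000578% to 0.01575%. The 7 erythroid genes took 0.01355% to 0.130% and 0.00659% to 0.0336%. These lists had median folds of 1.13, -3.55 and 2.00, and 0 of their genes passed edgeR's test. Libraries overlapped for eosinophil, erythroid, B lineage and blood progenitor shares. The part of these in the granule gene values was not tested.

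Mutant against control donor leptomeningeal cells put the same question to the population with the most granule RNA. None of the 10 genes passed, where 0.0487% of genes tested did, and the folds ran from -0.41 ± 0.55 (Ngp) to 0.14 ± 0.43 (Retnlg), each with an edgeR adjusted p of 1. Elane had -0.17 ± 0.71, Mpo -0.28 ± 0.66 and Prtn3 -0.22 ± 0.62. The libraries of the 2 genotypes overlapped for all 10 genes. The sign of the early folds rested on single libraries: without mutant library 2 they were 0.22 (Elane), 0.12 (Mpo) and 0.14 (Prtn3), and without control library 2 they were 0.060 (Elane) and 0.044 (Prtn3). That of Retnlg turned negative without mutant library 3 or control library 1 (-0.17 and -0.034).

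Host cells of mutant and control chimeras did not differ detectably either. In host microglia 0 of the 10 genes passed, where 0.0649% of genes tested did, and the later genes had folds of 0.11 ± 1.69 (Retnlg) to 0.88 ± 0.75 (Camp). In host leptomeningeal cells, with 2 libraries a genotype, 0 of the 10 passed, where 0% of genes tested did (665 at an unadjusted p under 0.05 and 25 called by DESeq2), and the later genes had folds of -0.46 ± 0.87 (Retnlg) to 0.27 ± 0.70 (Ltf). The early genes were at or near 0 UMIs in all these host groups, so no fold is given.

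Whether the genotype difference itself varied was tested directly. For the early genes, the size of such a difference rests on counts at or near 0 in most mutant donor microglial libraries. Between leptomeningeal and parenchymal donor cells, the genotype folds of the 10 genes differed by 1.49 ± 1.12 (Retnlg) to 5.51 ± 1.96 (Mpo), and 0 of 10 passed by edgeR (adjusted p = 0.703 to 0.851), where 0% of genes tested did (785 at an unadjusted p under 0.05 and 2 called by DESeq2). Between donor and host microglia, the later genes' genotype folds differed by -1.46 ± 2.07 (Retnlg) to -3.26 ± 0.87 (S100a8), and 0 of 10 passed, where 0.0324% of genes tested did. DESeq2 called S100a8 and S100a9 lower there (adjusted p = 0.0297 and 0.0305).

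The genes whose profiles lay nearest to the early mean over the 28 libraries were Ctsg, the primary granule protease cathepsin G (root-mean-square distance 0.89 on the log2 scale, against 3.25 for the size of the profile itself), Fcnb (1.49), Prss57 (1.53), 1700020L24Rik (1.53) and Ms4a3 (1.53), a gene of granulocyte-monocyte progenitors. Ctsg measured 0, 0, 2.98 and 0 CPM in mutant donor microglial libraries 1 to 4, against 0, 79.4, 54.1 and 105.8 CPM in control ones. In donor leptomeningeal cells Ctsg had 38.9, 3.07, 113.4 and 29.98 CPM in mutant and 15.4, 89.3, 57.4 and 96.7 CPM in control libraries. Control microglial library 1 and mutant leptomeningeal library 2 were low for Ctsg as for Elane and Mpo, which its selection by profile made likely. Ms4a3 had 0 UMIs in all 4 mutant donor microglial libraries, and 0, 10.1, 4.92 and 17.3 CPM in control ones. These genes were picked for nearness to the early mean over the same libraries, so their values are not separate evidence.

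The profiles nearest to the later mean were those of Chil3 (distance 0.37, against 3.00 for the size of that profile), a chitinase-like lectin of neutrophils and macrophages, Ly6a2 (0.41), Hp (0.43), which encodes haptoglobin, Anxa1 (0.45) and Lrg1 (0.59). Chil3 measured 38.5, 56.5, 56.6 and 47.2 CPM in mutant donor microglial libraries 1 to 4, against 43.8, 82.3, 256 and 382 CPM in control ones. Its likeness to the later genes follows from its selection by profile and is not separate evidence. Among the 10 genes themselves, Ngp lay nearest to the later mean (0.26), while Retnlg (1.09), Camp (0.75) and S100a9 (0.67) lay farthest from it.

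Other genes of the later granule stages were higher in the same comparisons. A list for the secondary and gelatinase granule stages held 22 other genes, not all of which encode granule proteins, since Cebpe was among them. Of the 22, 22 were higher and 0 lower in leptomeningeal than in parenchymal donor cells. Their median fold was 4.58 (all genes, -0.03), where 30.5% of all genes tested were higher and 31.5% lower. Among them Padi4, the enzyme that citrullinates histones, rose by 4.63 ± 0.22, and the gelatinase gene Mmp9 by 4.96 ± 0.23. In the donor to host comparison 22 of the 22 were higher in the leptomeninges (16.9% of all genes tested) and 19 in the parenchyma (33.1% of all genes tested). Lyz2 and Cybb, which macrophages express too, rose by 3.61 ± 0.09 and 4.39 ± 0.13 in the parenchyma. Cebpe, the gene of C/EBP epsilon, which was singled out after its values were seen, lay at 2.96, 3.20, 12.9 and 4.10 CPM in mutant donor microglial libraries, against 10.4, 18.8, 32.8 and 55.5 CPM in control ones, and at 132 to 358 CPM in mutant and 184 to 366 CPM in control donor leptomeningeal cells.

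Of 16 other primary granule and progenitor genes tested, 12 were higher and 3 lower in leptomeningeal than in parenchymal donor cells (30.5% and 31.5% of all genes tested). In donor against host microglia 7 of the 16 were higher and 2 lower (33.1% and 27.3% of all genes tested). Serpinb1a, an inhibitor of the neutrophil serine proteases, rose by 4.32 ± 0.38 in the leptomeninges over the parenchyma, and Calr, the chaperone calreticulin, fell by 0.95 ± 0.09 in donor over host microglia. Of 22 mature neutrophil receptor and product genes tested, 20 were higher and 2 lower in donor than in host microglia (33.1% and 27.3% of all genes tested). The 2 lower were Csf3r, the receptor for G-CSF, which fell by 1.21 ± 0.09, and Ccl6, which fell by 1.19 ± 0.10. Csf3r averaged 161.2 CPM in donor and 419.8 CPM in host microglia, where the granule genes were lowest. On the same list 20 were higher and 1 lower in leptomeningeal than in parenchymal donor cells (30.5% and 31.5% of all genes tested). In the leptomeninges 19 were higher and 0 lower in donor than in host cells (16.9% and 13.3%). Host leptomeningeal cells against host microglia had 20 higher and 2 lower (31.1% and 25.7%). In all 4 genotype comparisons 0 genes of these 3 lists passed.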

How the data were processed

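RNA of 28 sorted cell libraries in 8 groups was read as UMI counts. Per the file headers, the authors deposited 1 table with 3 columns a library, of which the first holds raw UMI counts. The second holds a normalized signal, in a constant ratio to the counts within a library, and the third rlog values on a log2 scale, per the file headers and the deposited values. Only the counts were used. The submitters' processing notes name mm10 as genome build; an aligner is not given in those notes.

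CPM was computed over each library's total. The test was edgeR (4.0.16) quasi-likelihood with robust dispersions, TMM scaling, filterByExpr over the 8 groups and 1 mean per group, in R 4.3.3, with Benjamini-Hochberg adjustment at 0.05 over 12327 genes. Fold changes are log2 ± SE (the fold over the square root of F) and levels are means ± SD. Profiles were compared as centred log2 CPM with a prior count of 2. DESeq2 (1.42.0), limma's voom (3.58.1) and leaving out each library were alternatives, and the models were tested on simulated data. The lowest chi-square per gene between libraries of a group was 1.97 over 38 pairs, so none was counted as a duplicate. Members, gene lists and motifs were chosen with earlier results of these data known. The naming rule took all 10 granule genes, up to 3 genes per list and comparison with the smallest adjusted p, and the 5 nearest profiles per stage. Promoters came from RefSeq (GRCm38.p6) and positions from GENCODE M21.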

Additional observations from a re-analysis of the deposited data

Results flagged for a closer look

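Within groups of 4 libraries, 6 of 66 sets of values had 1 library farther from the others than Dixon's 95% critical value allows, and chance marks about 1 in 20 such sets. In mutant donor microglia, library 3 was high for Elane (39.7 CPM, next 2.05), for Prtn3 (20.9 CPM, next 1.07) and for the early share of granule UMIs (3.57%, next 0.394%). Mpo in the same library was 1.99 CPM, inside its group's range. In host microglia, Prtn3 was 3.05 CPM in mutant library 4 and 0.344 CPM in control library 4, with 0 UMIs in the other 3 libraries of each group, and these values are 5 UMIs and 1 UMI. In control donor leptomeningeal cells, library 1 had the lowest early share (0.795%, next 1.25%).

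The donor to host difference of S100a9 was larger in the leptomeninges than in the parenchyma by 2.87 on the log2 scale, and that of S100a8 by 1.99, by the test of the difference between folds.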

How the results depend on the processing

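Of 1935 recomputed folds of the 10 genes, 1857 kept their direction and side of the threshold, 14 dropped below it, 17 passed it and 47 changed sign, none of them past the threshold in either fit. In donor microglia the count of granule genes that differed by genotype, 0 with edgeR, was 6 with DESeq2 and 0 to 4 with 1 library left out. All genes called there numbered 11 with edgeR, 17 without the filter, 81 with DESeq2, 125 with voom, 4 with the groups alone, 6 without both control library 1 and mutant library 4 (left out together after seeing the data), and 3 to 544 with 1 library left out. The other genotype counts of all genes were 12 with voom against 6 (donor leptomeninges), and 15 with DESeq2, 5 with voom, 0 with the groups alone and 0 to 11 with 1 library left out against 8 (host microglia). In host leptomeninges they were 3 with DESeq2 size factors, 2 without the filter, 25 with DESeq2, 4 with the replicate block, 17 with the groups alone and 1 to 5 with 1 library left out, against 0. For the difference of folds between donor and host microglia, 14 were called by DESeq2 and 2 to 75 with 1 library left out, against 4, and DESeq2 called 2 granule genes. Between donor compartments 2 were called by DESeq2, 1 by voom, 1 with the replicate block and 0 to 149 with 1 library left out, against 0.

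For the origin by compartment difference, the count of granule genes, 2 with edgeR, was 4 with DESeq2, 1 with the replicate block within genotype (S100a9, with S100a8 at adjusted p = 0.064) and 1 to 3 with 1 library left out. Over all genes tested, deviations of same-numbered libraries of 1 genotype had correlations of -0.12 to 0.09, with 0 of 36 over 0.1. These correlations cannot tell whether libraries of the same number share an animal or pool. Elsewhere the replicate block made Mpo pass in the donor to host comparison of the parenchyma when fitted within genotype (adjusted p = 0.0442), as did DESeq2 (adjusted p = 4.33e-05).

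Signs changed for Camp in host leptomeninges with voom (0.29) and with the replicate block (0.036), for S100a9 there with the groups alone (-0.0098), and for Retnlg in origin by compartment without the filter (0.029), with voom (1.32) and without both donor microglial libraries (0.14). With 1 library left out, donor leptomeningeal genotype folds ran from -1.02 to 0.22 (Elane), -1.56 to 0.12 (Mpo), -1.003 to 0.14 (Prtn3) and -0.17 to 0.35 (Retnlg). Host microglial ones ran from -0.048 to 1.01 (Lcn2) and -0.14 to 0.52 (Retnlg). Host leptomeningeal ones ran from -0.54 to 1.17 (Ngp), -0.72 to 1.45 (Camp), -0.50 to 1.37 (Ltf), -0.75 to 1.76 (Lcn2), -3.32 to 2.05 (Retnlg), -0.50 to 1.03 (S100a8) and -0.49 to 0.84 (S100a9). Origin by compartment ran from -0.49 to 0.64 (Camp) and -0.38 to 1.42 (Retnlg). The cause was not tested in any of these. Depth limits the early genes most, since 3 UMIs are 6.26 CPM in the shallowest library.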
